A study of Mus musculus with 35 samples.

Results

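Clustered histone genes were the 70 genes, of 54446 in the deposited expression table, whose symbols began with Hist1h, Hist2h, Hist3h or Hist4. By type they were 6 linker H1, 20 H2A, 19 H2B, 12 H3 and 13 H4 genes. On mouse mm10, 56 of them lay on chromosome 13, 10 on chromosome 3, 3 on chromosome 11 and 1 on chromosome 6. Gene models with a single exon made up 65 of the 70, and the models were 312 to 7425 bases long (median 532). The annotation called 67 of them protein-coding. The other 3, Hist3h2bb-ps, Hist1h2aj and Hist1h2al, were annotated as pseudogenes.

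Expression was measured by RNA-seq in wild-type mouse epiblast at embryonic days (E) 3.5, 4.5, 5.5, 6.5 and 7.5, with 3 libraries at each stage, and in 4 epiblast-like cultures, also with 3 libraries each. The labels give the CD-1 strain and no treatment for the embryos, and the study's methods describe natural matings of CD1 mice or of mice with a Pdgfrα:H2B-GFP reporter. E3.5 material was inner cell mass cut out by laser. E4.5 material was epiblast cells picked by hand as GFP-negative after immunosurgery. E5.5 to E7.5 material was dissected epiblast, pooled over embryos, with visceral endoderm, extra-embryonic ectoderm and, at E7.5, the allantois removed. The cultures were all wild-type. Epiblast stem cells in 3D Matrigel with FGF2, ActivinA, XAV and Noggin were made from embryonic stem cells (ESC3D) or from embryos (Embryo3D). Other epiblast stem cells were converted in 2D by FGF2 and ActivinA (EpiSC). Epiblast-like cells had a short exposure, of 48 h, to FGF2 and ActivinA (EpiLC). Replicates were separate samples by their labels, and p-values measure only the spread between those samples.

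Embryo libraries came from a total RNA kit with removal of ribosomal cDNA, and culture libraries from a poly-A selection kit, so that kit and origin cannot be told apart and no test was made between embryo and culture. RNA of E3.5 and E4.5 was fragmented for 6 min at 85 °C and RNA of later stages for 4 min at 94 °C, a change that coincides with the step from E4.5 to E5.5. Values are TPM (transcripts per 1000000), a level per transcript length whose total is the same in each library. TPM keep no read counts, so the number of reads behind each value is unknown. The study's methods state the same sequencing depth per library for embryo and culture RNA. In such bulk samples, fewer cells of a type and less RNA per cell cannot be told apart.

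Replication-dependent histone genes supply the histones that package newly made DNA, and their mRNAs accumulate in S phase. Their mRNAs are the known exception to polyadenylation in animals: each ends just after a short stem-loop, which is bound by the stem-loop binding protein SLBP. H2A, H2B, H3 and H4 form the core of the nucleosome, and H1 binds the linker DNA between nucleosomes. The genes lie in clusters, where many H2A and H2B genes stand back to back and share a promoter region.

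The stem-loops are shown because these mRNAs are known to lack a poly-A tail and the culture libraries were made by poly-A selection. Tails were not measured here. A 16-base hairpin with a 6-base stem and a 4-base loop was searched in the mm10 sequence within 150 bases after each stop codon. For the genes annotated as pseudogenes the search began at the end of the gene model instead. It was present in 64 of 70 clustered histone genes (91.4%) and in 25 of 21685 other protein-coding genes (0.115%). It began 21 to 58 bases after the stop codon or, for a pseudogene, the end of the gene model (median 30). In 44 of the 70 the annotated transcript itself reached over the hairpin. There were 6 versions, carried by 42, 9, 8, 2, 2 and 1 genes. An example of each follows in that order, 5′ to 3′ on the gene's strand, with the hairpin in capitals and 5 bases on either side.
Hist1h1a: ccaacGGCTCTTTTCAGAGCCaccaa
Hist1h1t: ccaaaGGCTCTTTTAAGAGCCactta
Hist1h4h: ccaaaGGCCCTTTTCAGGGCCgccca
Hist1h4i: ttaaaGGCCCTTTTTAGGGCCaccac
Hist1h4b: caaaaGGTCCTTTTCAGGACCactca
Hist2h2ac: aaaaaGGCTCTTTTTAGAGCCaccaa
The capital bases lie at chr13:23764392-23764407 (plus strand), chr13:23696525-23696540 (plus), chr13:23531458-23531473 (plus), chr13:22040966-22040981 (minus), chr13:23757366-23757381 (plus) and chr3:96220418-96220433 (minus). No hairpin of this form was found for Hist1h2aj, Hist1h2al, Hist1h2an, Hist2h2be, Hist1h3g and Hist1h4a.

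Promoters from 250 bases before to 50 after the start were available in RefSeq (GRCm38.p6) for 62 of the 70 genes. TATAA, on either strand, was in 50 of 62 (80.6%), against 28.0% of 27025 promoters of all genes. CCAAT, on either strand, was in 53 of 62 (85.5%), against 41.1% of all promoters. All 6 H1, 18 H2A, 16 H2B and 10 H3 promoters held CCAAT, and only 3 of 12 H4 promoters did. The octamer ATTTGCAT, on either strand, was in 14 of 62 (22.6%), of which 7 were H2A and 7 H2B, against 1.97% of all promoters. These promoters are shown for genes whose levels over the stages are described further on, with these motifs in capitals. They are Hist3h2ba at chr11:58948661-58948960 (plus), Hist1h4i at chr13:22041313-22041612 (minus) and Hist1h1t at chr13:23695561-23695860 (plus).
Hist3h2ba: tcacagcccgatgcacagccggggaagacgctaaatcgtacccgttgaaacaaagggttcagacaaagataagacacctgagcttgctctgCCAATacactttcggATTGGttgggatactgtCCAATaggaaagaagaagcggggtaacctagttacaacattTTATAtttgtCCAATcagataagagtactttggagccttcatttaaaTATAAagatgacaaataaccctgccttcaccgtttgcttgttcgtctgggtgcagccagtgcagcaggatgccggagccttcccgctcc
Hist1h4i: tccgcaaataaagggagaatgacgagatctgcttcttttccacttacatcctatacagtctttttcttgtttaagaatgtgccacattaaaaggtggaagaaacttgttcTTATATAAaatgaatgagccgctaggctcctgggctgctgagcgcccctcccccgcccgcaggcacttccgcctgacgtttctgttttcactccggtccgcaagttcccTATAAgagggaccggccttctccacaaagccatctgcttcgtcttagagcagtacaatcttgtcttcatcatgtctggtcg
Hist1h1t: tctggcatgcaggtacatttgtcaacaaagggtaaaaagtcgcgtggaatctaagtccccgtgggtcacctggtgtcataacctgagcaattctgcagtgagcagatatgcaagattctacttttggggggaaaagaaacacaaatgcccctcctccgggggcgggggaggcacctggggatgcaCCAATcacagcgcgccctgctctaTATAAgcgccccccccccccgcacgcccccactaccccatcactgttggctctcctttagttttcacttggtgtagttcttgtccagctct
The H2A gene Hist1h2aa and the H2B gene Hist1h2ba, both known from male germ cells, face away from each other with 305 bases between their gene models. Their windows at chr13:23934187-23934486 (plus) and chr13:23934107-23934406 (minus) overlap on opposite strands, and each is written on its own strand.
Hist1h2aa: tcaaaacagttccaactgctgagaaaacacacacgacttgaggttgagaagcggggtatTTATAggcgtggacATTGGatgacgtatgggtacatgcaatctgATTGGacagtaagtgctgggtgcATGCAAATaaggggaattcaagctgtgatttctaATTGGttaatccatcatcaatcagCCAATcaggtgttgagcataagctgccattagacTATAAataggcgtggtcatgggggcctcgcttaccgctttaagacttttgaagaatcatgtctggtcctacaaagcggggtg
Hist1h2ba: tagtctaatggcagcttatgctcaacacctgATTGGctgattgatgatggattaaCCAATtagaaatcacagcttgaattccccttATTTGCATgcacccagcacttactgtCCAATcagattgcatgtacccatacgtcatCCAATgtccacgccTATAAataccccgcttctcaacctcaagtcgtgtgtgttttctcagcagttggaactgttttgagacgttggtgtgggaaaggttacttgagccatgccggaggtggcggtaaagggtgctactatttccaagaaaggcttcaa
A match to these letters is a description of the sequence only, and binding was not measured.

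Summed TPM of the clustered histone genes was higher in the epiblast at E5.5 than at E4.5. The sums of the E6.5 and E7.5 libraries also lay above those of E4.5. From E4.5 to E5.5, 43 of 67 tested genes were called higher, where 14.9% of all genes tested were. The fragmentation setting changed at the same step and cannot be told apart from stage. The 70 genes together made up 1.81 to 5.41% of all TPM in the 15 embryo libraries. Their summed level was 22002 ± 1021 TPM at E3.5 (mean ± SD, n = 3 at each stage), 18643 ± 450 at E4.5, 40002 ± 3026 at E5.5, 44088 ± 9236 at E6.5 and 38718 ± 1115 at E7.5. The E5.5 sum was 2.15 times the E4.5 sum, and the E7.5 sum 1.76 times the E3.5 sum. All libraries of E5.5 to E7.5, the lowest at 35946 TPM, lay above all libraries of E3.5 and E4.5, the highest at 23177 TPM. The E6.5 libraries spread the most, at 54125, 42192 and 35946 TPM, so that the means of E5.5, E6.5 and E7.5 lay within the E6.5 spread. After scaling by median-of-ratios factors the mean sums were 39639 at E5.5, 46309 at E6.5 and 32182 at E7.5.

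**Figure D1:**
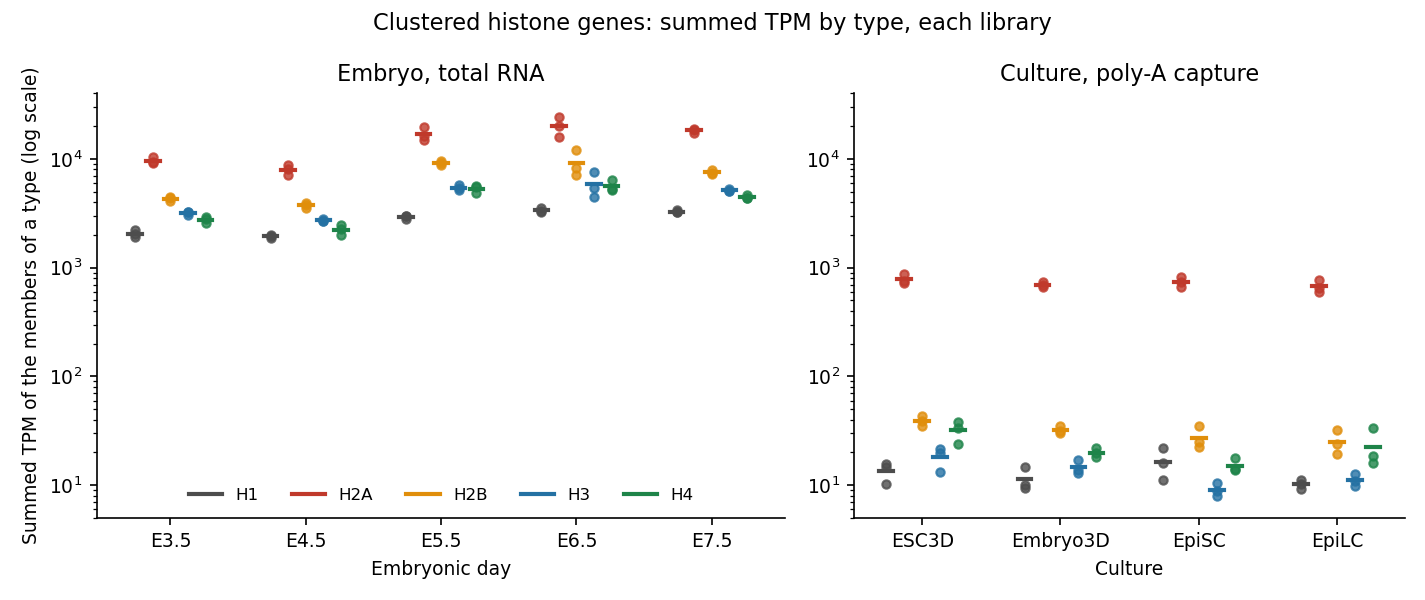
Summed TPM of the clustered histone genes of each type in each of the 15 embryo and 12 culture libraries, on a log axis; points are libraries and short lines are group means. The embryo sums of every type were higher from E5.5 on than at E4.5, and in culture the H2A genes held 86.5 to 93.4% of the sum.

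The ratio of the summed levels differed by type and was lowest for the linker type. From E4.5 to E5.5 the summed level was 1.52 times as high for H1, 2.14 for H2A, 2.46 for H2B, 1.99 for H3 and 2.38 for H4. The summed core histones per H1 were 8.63 ± 0.37 at E4.5 and 12.6 ± 0.76 at E5.5, and the libraries of the 2 stages did not overlap (8.33 to 9.05 against 11.9 to 13.4). At E3.5 the ratio was 9.72 ± 0.46 and at E7.5 10.8 ± 0.19, and at E6.5 it was 12.1 ± 2.1, with libraries from 9.89 to 14.2 that overlapped those of E3.5, E5.5 and E7.5. The share of each type in the sum ranged over the embryo libraries from 6.60 to 10.7% for H1, 38.9 to 48.7% for H2A, 18.6 to 25.1% for H2B, 12.5 to 15.6% for H3 and 10.6 to 14.7% for H4.

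Genes were tested with limma on log2(TPM + 1) in a single fit of the 5 stages over 11880 autosomal protein-coding genes with TPM above 2 in at least 3 embryo libraries. A gene was called where the Benjamini-Hochberg adjusted p was below 0.05 and the log2 fold change passed 1 in either direction. All 70 clustered histone genes passed the filter on low values, and the 67 protein-coding ones were tested. The filter was passed most narrowly by Hist2h2be, at a mean of 1.26 TPM over the embryo libraries. It passed only through libraries of E5.5 and E7.5.

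Between E4.5 and E5.5, 43 of the 67 genes were called higher and 0 lower, where 14.9% of all genes tested were called higher and 9.47% lower. Their median log2 fold change was 1.17, against 0.16 over all genes tested. In 64 of the 67 genes all 3 E5.5 libraries lay above all 3 E4.5 libraries, as in 40.4% of all genes. The adjusted p was below 0.05 for 63 of the 67 in limma. The share of all genes tested that passed this p alone is not given, so the count has no background beside it. By type, 15 of 18 H2B genes (median log2 fold change 1.44), 10 of 13 H4 genes (1.36), 12 of 18 H2A genes (1.16), 6 of 12 H3 genes (1.01) and 0 of 6 H1 genes (0.66) were called higher. After rescaling with median-of-ratios factors the median of all genes went from 0.16 to 0.03 and that of the histone genes to 1.02. With these factors 36 of the histone genes were called higher, where 13% of all genes were.

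Libraries differed at this step in more than stage. The fragmentation setting changed with it and cannot be told apart from stage. Short transcripts other than the histone genes, 510 with at most 1000 bases, had a median log2 fold change of -0.10, with 42 called higher and 75 lower. Other RNAs without a poly-A tail, 9 such as Rn7sk and Rmrp, were not among the genes tested. They summed to 35113 to 39950 TPM in the E4.5 libraries and 61163 to 63055 TPM in the E5.5 libraries. Of 7 trophectoderm and extra-embryonic ectoderm markers, 6 were called lower, and their summed level was 2880 to 3042 TPM in the E4.5 libraries and 406 to 436 TPM in the E5.5 libraries, mostly Krt18 and Krt8. None of the 7 was at 0 throughout a stage. Of 9 primitive and visceral endoderm markers 5 were called higher, and their summed level went from 68.2 to 85.9 TPM at E4.5 (Afp at 0) to 614 to 659 TPM at E5.5. Of 5 epiblast markers 2, Fgf5 and Otx2, were called higher, with a summed level of 471 to 506 TPM at E4.5 and 947 to 1026 TPM at E5.5. The part of these differences in the histone result was not tested.

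**Figure D2:**
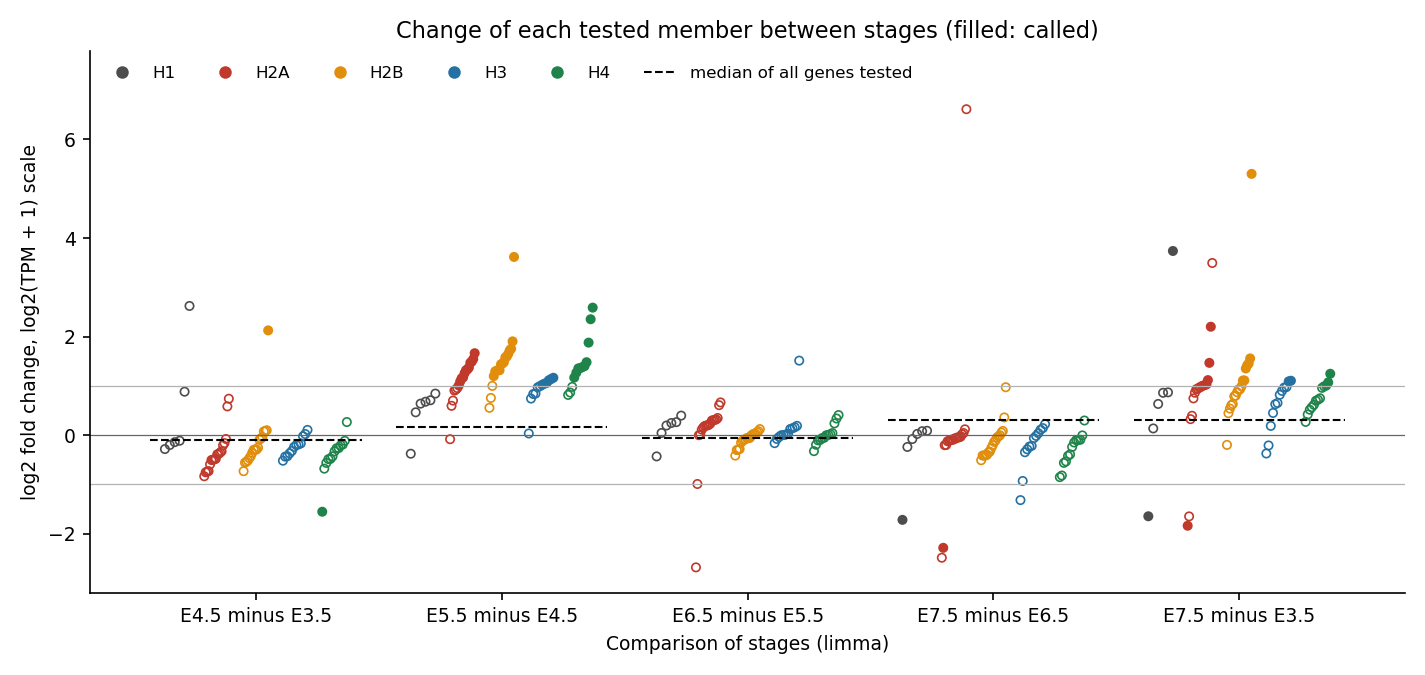
Log2 fold change of each tested clustered histone gene on the log2(TPM + 1) scale, by type, for each comparison of stages; each point is a gene, filled where called, the grey lines mark changes of 0 and of 1 in either direction, and the dashed lines the median of all genes tested. In the step from E4.5 to E5.5 the medians of the types lay between 0.66 (H1) and 1.44 (H2B). Open points far from 0 in other comparisons include Hist2h2aa1 (6.61 from E6.5 to E7.5), Hist1h2ac (-2.49) and Hist1h1e (2.62 from E3.5 to E4.5), each listed at 0 in some libraries.

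The other steps between neighbouring stages held few calls. From E3.5 to E4.5, 1 of 67 was called higher and 1 lower, where 5.88% of all genes were called higher and 11.9% lower. The adjusted p alone was below 0.05 for 28 of the 67 in limma, nearly all with changes under the fold needed for a call. For this count and those by p alone at the steps below, the share of all genes tested is not given. They are therefore not read as particular to the histone genes. The median was -0.29 against -0.10 for all genes, and in 39 of the 67 all E4.5 libraries lay below all E3.5 libraries, as in 35.7% of all genes. From E5.5 to E6.5 limma called 0 higher and 0 lower, where 0.715% and 0.48% of all genes were called. Of the 67, 11 had an unadjusted p below 0.05 at that step and 4 an adjusted p below 0.05 (Hist1h4k, Hist1h2aa, Hist2h2ab and Hist2h2ac, the last ones named after their values were seen). From E6.5 to E7.5, 0 were called higher and 2 (Hist1h1t and Hist1h2aa) lower, where 10.6% and 1.94% of all genes were called. The adjusted p alone was below 0.05 for 11 of the 67 in limma. Their median there was -0.10 against 0.31 for all genes, and in 3 of the 67 all E7.5 libraries lay above all E6.5 libraries, as in 54.0% of all genes. These 3 were Hist1h2ba, Hist2h2ac and Hist2h2be. In 14 of the 67 all E7.5 libraries lay below all E6.5 libraries, as in 8.80% of all genes. With median-of-ratios factors the same step gave 0 higher and 5 lower (also Hist1h4b, Hist4h4 and Hist1h3c), where 6.2% and 3.22% of all genes were called. With the other protein-coding genes set to a common total it gave 1 higher (Hist2h2be) and 4 lower, where 9.01% and 3.02% were.

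Over the whole course, from E3.5 to E7.5, 19 were called higher and 2 (Hist1h1t and Hist1h2aa) lower, where 23.8% of all genes were called higher and 13.4% lower. Their median was 0.87 against 0.30. With median-of-ratios factors 7 were called higher and 2 lower, where 18.8% of all genes were called higher, and with the other protein-coding genes set to a common total 8 and 2, where 21.3% were. The lowest stage mean was at E4.5 for 57 of the 70 genes, at E3.5 for 10 and at E7.5 for 3. The highest was at E6.5 for 37, at E5.5 for 20, at E7.5 for 12 and at E4.5 for 1.

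**Figure D3:**
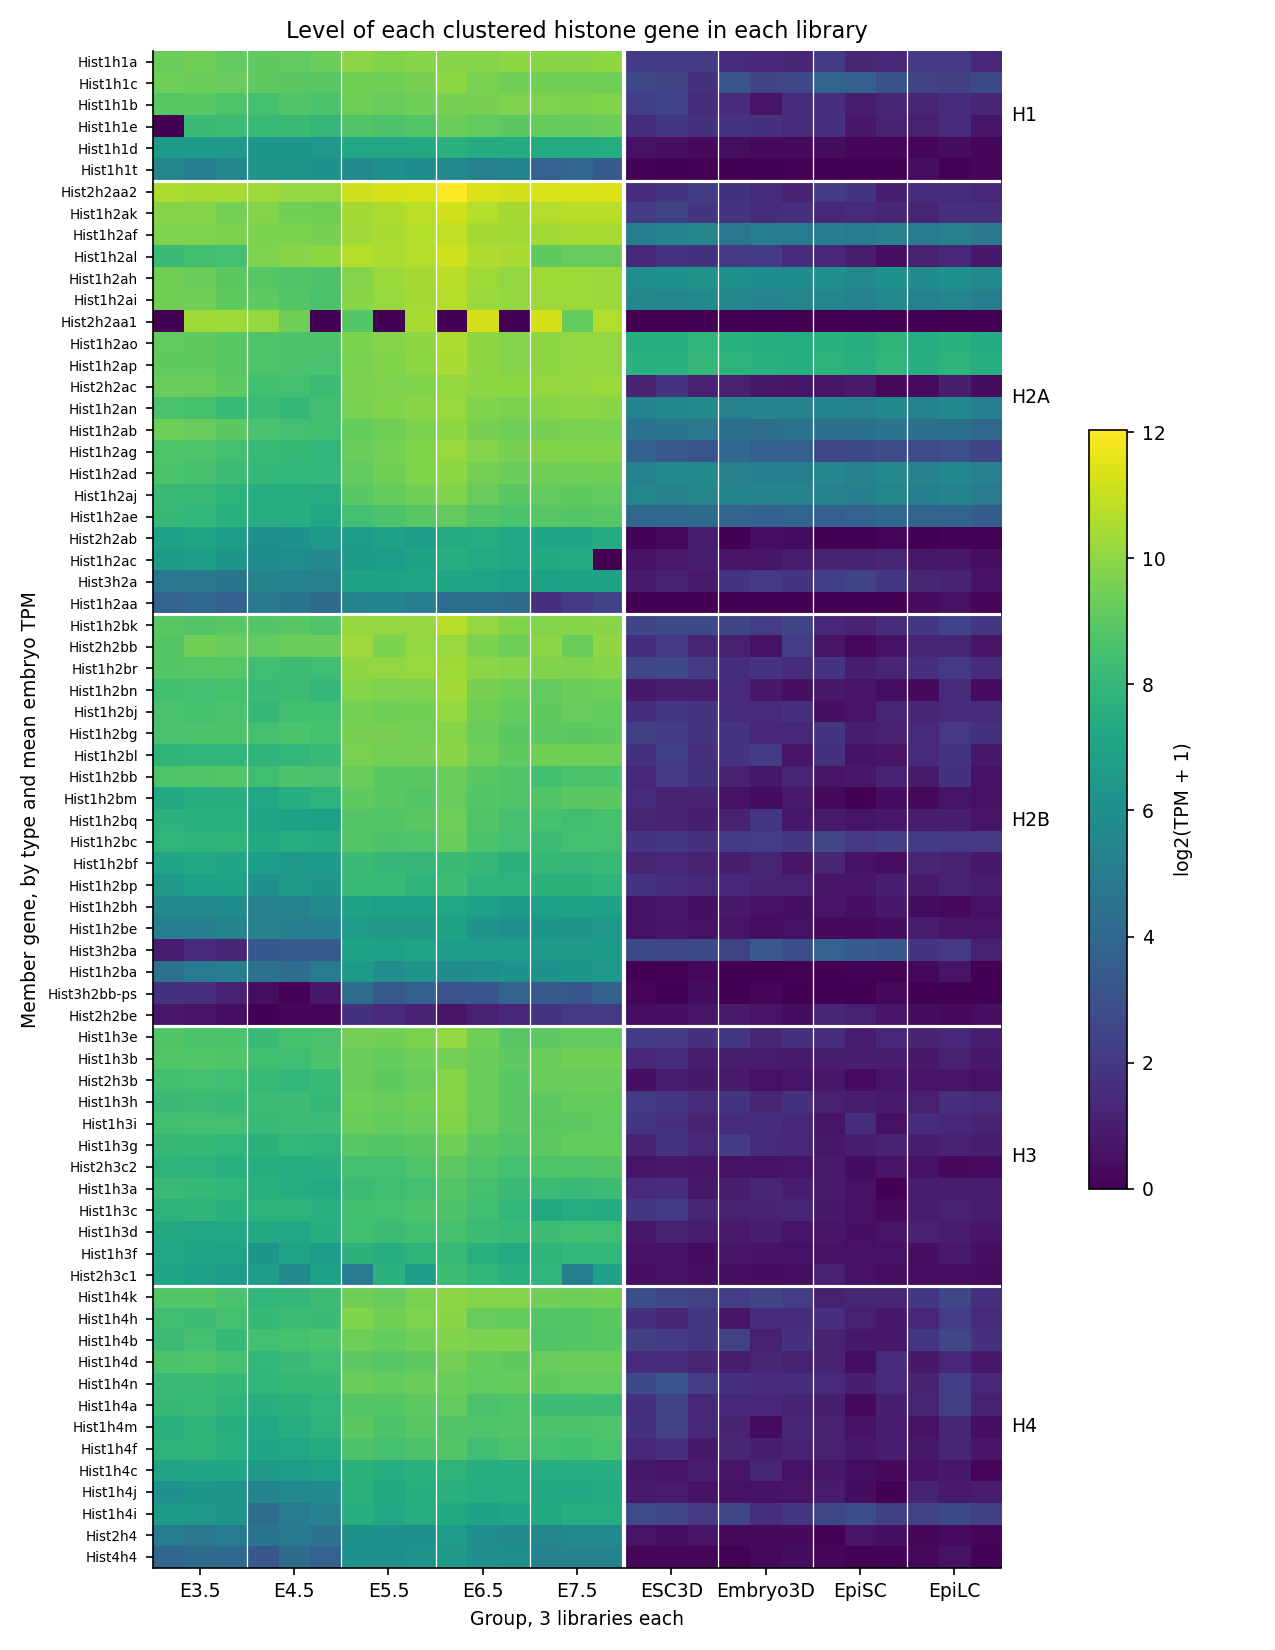
Level of each of the 70 clustered histone genes in each of the 27 libraries, as log2(TPM + 1), with genes grouped by type and libraries by stage or culture. Embryo columns are high for nearly all genes, with 59 of 70 above a mean of 100 TPM, and culture columns are high only for a set of H2A genes.

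The linker histones had 5 genes at high levels and 1 germ-cell gene at a low level. Hist1h1a, the highest, read 628, 681 and 574 TPM at E3.5, 541, 575 and 623 at E4.5, 977, 873 and 933 at E5.5, 934, 914 and 1021 at E6.5, and 952, 950 and 1015 at E7.5. All libraries from E5.5 on lay above all earlier ones. Its log2 fold change from E4.5 to E5.5 was 0.68 (SE 0.09, limma adjusted p = 1.7e-05), under the fold needed for a call. Hist1h1b, Hist1h1c and Hist1h1d, further somatic H1 genes, gave 0.71, 0.46 and 0.84 at this step, again with non-overlapping libraries. Hist1h1c had a mean of 684 TPM over the embryo libraries, Hist1h1b 625 and Hist1h1d 134. TPM are a level per model length, and the Hist1h1d model was 7425 bases long, with 4884 after the hairpin. That of Hist1h1b was 743 bases long. The part of model length in these differences between genes was not tested.

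Hist1h1e, another somatic H1 gene, was listed at 0 in an E3.5 library and at 293 and 308 TPM in its other libraries. It read 274, 298 and 256 TPM at E4.5, 429, 410 and 451 at E5.5, 627, 569 and 507 at E6.5, and 583, 591 and 620 at E7.5. The E7.5 libraries lay above all E3.5 libraries, and the call from E3.5 to E7.5 (log2 fold change 3.74, SE 1.52, limma adjusted p = 0.039) rested on the value of 0. Without that library the log2 fold change was 0.99 and the gene was not called. Its model overlaps that of Hist1h2be on the same strand.

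Hist1h1t encodes the linker histone of spermatocytes. It read 43.0, 34.2 and 44.8 TPM at E3.5, 77.4, 75.7 and 72.7 at E4.5, 52.4, 63.9 and 57.4 at E5.5, 49.3, 36.5 and 42.7 at E6.5, and 12.6, 14.8 and 9.7 at E7.5. It was highest at E4.5, the stage where most of the 70 genes were lowest, and all E7.5 libraries lay below all others. It fell from E6.5 to E7.5 by 1.72 on the log2 scale (SE 0.15, limma adjusted p = 9.81e-07) and from E3.5 to E7.5 by 1.65 (SE 0.15, adjusted p = 2.81e-07). Its share of summed H1 was 3.89% ± 0.20 at E4.5 and 0.379% ± 0.087 at E7.5 (SD, n = 3).

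**Figure D4:**
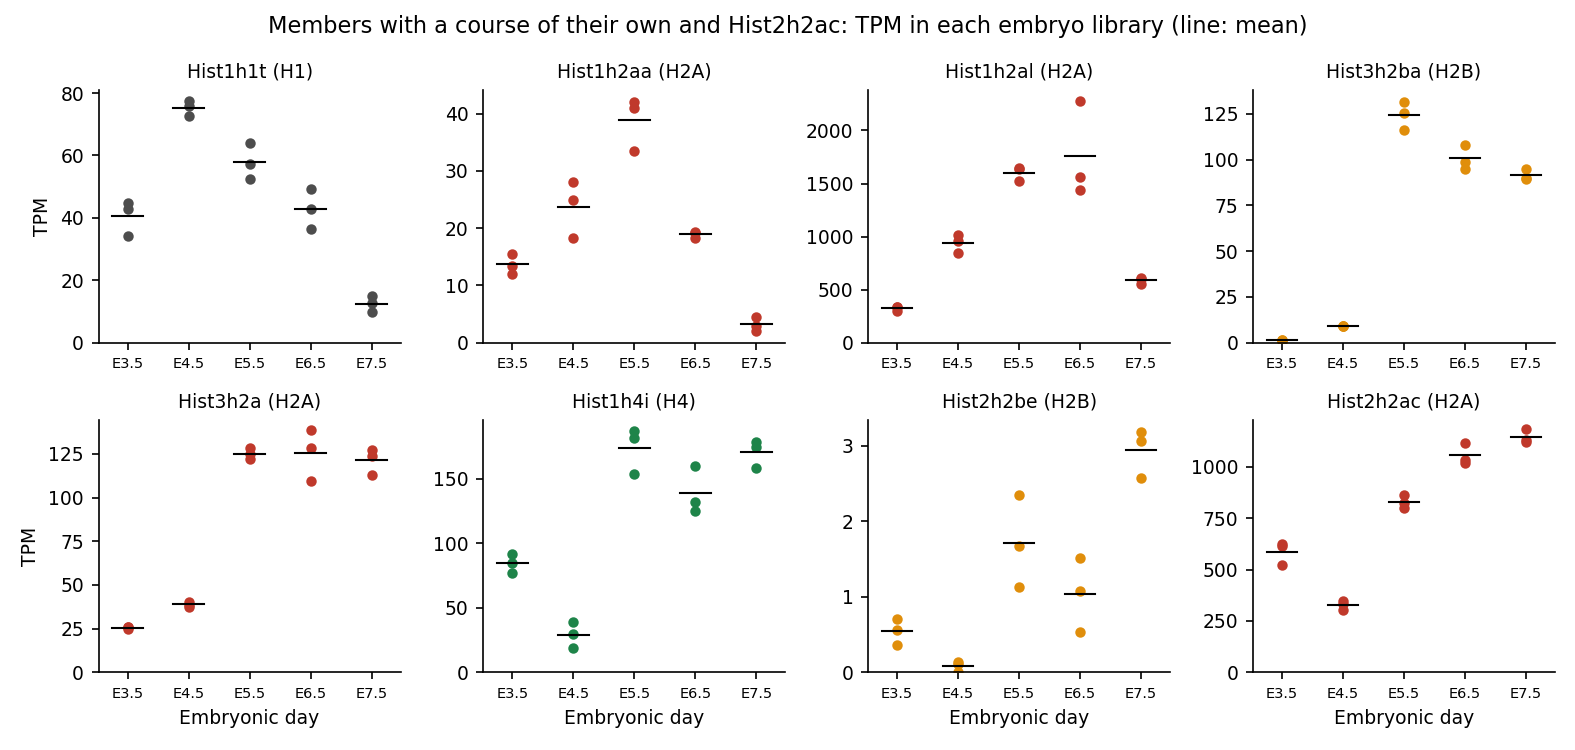
TPM in each embryo library of Hist1h1t, Hist1h2aa, Hist1h2al, Hist3h2ba, Hist3h2a, Hist1h4i, Hist2h2be and, for comparison, Hist2h2ac, by stage; points are libraries, short lines are stage means and each panel has its own axis from 0. Hist1h1t, Hist1h2aa and Hist1h2al drop at E7.5, and Hist3h2ba is near 0 at E3.5 and above 89 TPM from E5.5 on.

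Among the H2A genes, 18 of 20 had an embryo mean above 100 TPM. Hist2h2aa2 was the highest of all clustered histone genes. It read 1520, 1407 and 1424 TPM at E3.5, 1237, 1138 and 1096 at E4.5, 2218, 2551 and 2643 at E5.5, 4205, 2654 and 2478 at E6.5, and 2629, 2586 and 2681 at E7.5. The E5.5 libraries lay above all E4.5 libraries, with a log2 fold change of 1.09 (SE 0.16, limma adjusted p = 3.62e-05). Its near copy Hist2h2aa1 was listed at 0 in 5 of the 15 embryo libraries and reached 2453 TPM in an E6.5 library. The processed transcript Gm20634, which overlaps Hist2h2aa1 on the same strand, was at 0 in the same 5 libraries. Of the 100-base windows of Hist2h2aa1 and Hist2h2aa2, 88.3% and 100% also occur in another gene, so their separate levels are uncertain. Added together they gave a mean of 2297 TPM at E3.5, 1759 at E4.5, 3092 at E5.5, 3930 at E6.5 and 4177 at E7.5.

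The next highest H2A genes had lower folds. Hist1h2ak had a mean of 1328 TPM over the embryo libraries and a log2 fold change from E4.5 to E5.5 of 1.01 (SE 0.17, limma adjusted p = 0.000166). This call was lost in 5 of 24 alternative fits, at values down to 0.86. Hist1h2af had a mean of 1202 TPM and was not called at 0.93, with its E5.5 libraries all above its E4.5 libraries. Hist1h2an, which has no hairpin of the form searched, read 305, 257 and 337 TPM at E4.5 and 775, 879 and 966 TPM at E5.5, a log2 fold change of 1.54 (SE 0.15, limma adjusted p = 1.04e-06).

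Hist1h2aa, the H2A gene known from testis, was the lowest of the type. It read 13.4, 15.6 and 12.1 TPM at E3.5, 28.0, 25.0 and 18.2 at E4.5, 41.0, 42.1 and 33.5 at E5.5, 19.2, 19.3 and 18.4 at E6.5, and 2.14, 2.98 and 4.46 at E7.5. Its libraries peaked at E5.5 and the E7.5 libraries lay below all others. It fell from E6.5 to E7.5 by 2.29 on the log2 scale (SE 0.19, limma adjusted p = 5.24e-07) and from E3.5 to E7.5 by 1.84 (SE 0.19, adjusted p = 8.97e-07). Its divergent neighbour Hist1h2ba, named after its values were seen, read 70.2, 80.7 and 85.2 TPM at E7.5 and 54.4, 59.5 and 70.0 at E6.5. Over the promoter region that both share, printed above, the H2A gene was thus called lower at this step and the H2B gene was not called, at a log2 fold change of 0.36.

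Hist1h2al, annotated as a processed pseudogene, stands alone at chr13:51202727-51203065, outside the clusters, and shares 19.2% of its windows with other genes. It read 297, 339 and 341 TPM at E3.5, 842, 957 and 1011 at E4.5, 1634, 1523 and 1644 at E5.5, 2278, 1565 and 1435 at E6.5, and 551, 612 and 605 at E7.5. Each stage was apart from the next except E5.5 and E6.5, and it made up 11.9% ± 2.3 of summed H2A at E4.5 against 3.38% ± 0.29 at E3.5 and 3.23% ± 0.30 at E7.5. In a fit over all genes past the filter, which takes in pseudogenes, it rose from E3.5 to E4.5 by 1.52 (SE 0.15, limma adjusted p = 2.9e-06) and fell from E6.5 to E7.5 by 1.55 on the log2 scale (SE 0.15, adjusted p = 4.54e-06). The other H2A pseudogene, Hist1h2aj, shares 91.7% of its windows and had a mean of 454 TPM.

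The H2B genes ranged from 1.26 to 842 TPM in their embryo means. Hist1h2bk was the highest. It read 458, 475 and 432 TPM at E4.5 and 1110, 1103 and 1134 TPM at E5.5, a log2 fold change of 1.29 (SE 0.17, limma adjusted p = 2.17e-05). Hist1h2br read 325, 318 and 329 TPM at E4.5 and 1061, 1084 and 1141 TPM at E5.5, a log2 fold change of 1.75 (SE 0.11, limma adjusted p = 7.89e-09). In both genes the libraries of the 2 stages were far apart. Hist2h2bb, on chromosome 3, was more spread within stages, from 571 to 646 TPM at E4.5 and from 808 to 1236 at E5.5, and was not called at 0.75.

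Hist3h2ba, an H2B gene of the small group on chromosome 11, had the largest called changes among the clustered histone genes. It read 0.918, 1.72 and 1.46 TPM at E3.5, 8.99, 9.30 and 9.35 at E4.5, 125, 116 and 131 at E5.5, 108, 98.8 and 95.1 at E6.5, and 89.7, 89.5 and 94.8 at E7.5. No library of E3.5 or E4.5 overlapped with any later one. The log2 fold change was 2.13 from E3.5 to E4.5 (SE 0.11, limma adjusted p = 2.65e-09), 3.62 from E4.5 to E5.5 (SE 0.11, adjusted p = 9.09e-12) and 5.30 from E3.5 to E7.5 (SE 0.11, adjusted p = 7.58e-14). It was the only one of the 67 called higher from E3.5 to E4.5. Hist3h2a, the H2A gene of the same group, named after its values were seen, went from a range of 24.8 to 26.1 TPM at E3.5 to 37.5 to 40.3 at E4.5 and 122 to 128 at E5.5. Its log2 fold change from E4.5 to E5.5 was 1.66. The Hist3h2a model overlaps Trim17 on the same strand.

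Hist2h2be, an H2B variant gene known from olfactory neurons, read 0.705, 0.565 and 0.363 TPM at E3.5, 0, 0.134 and 0.104 at E4.5, 2.34, 1.67 and 1.13 at E5.5, 0.531, 1.08 and 1.52 at E6.5, and 2.56, 3.18 and 3.06 at E7.5. At these low levels it was among the genes called higher from E4.5 to E5.5 (log2 fold change 1.31, SE 0.18, limma adjusted p = 2.78e-05). It was also called higher from E3.5 to E7.5 (1.35, SE 0.18, limma adjusted p = 1.28e-05). It was above 2 TPM only in an E5.5 library and the E7.5 libraries, so it passed the filter only through groups where it was high. These calls, counted among the 43 and the 19, are given as values and not as support for a rise. The back-to-back partner of Hist2h2be, Hist2h2ac, an H2A gene 238 bases away and named after its values were seen, had a mean of 789 TPM over the embryo libraries. Among the 15 back-to-back pairs within these genes, the embryo mean of the right partner was otherwise 0.27 to 12.2 times that of the left, with Hist3h2a over the pseudogene Hist3h2bb-ps at the upper end.

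The H3 genes were the most even, with embryo means from 140 to 561 TPM, all above 100. Hist1h3e read 297, 366 and 376 TPM at E4.5 and 733, 699 and 813 TPM at E5.5, a log2 fold change of 1.11 (SE 0.20, limma adjusted p = 0.000297). Hist2h3b read 283, 246 and 287 TPM at E4.5 and 615, 556 and 631 TPM at E5.5, a log2 fold change of 1.14 (SE 0.17, limma adjusted p = 4.76e-05). Hist1h3b was not called at 0.84, and its libraries did not overlap between these stages either. Hist1h3g, without the hairpin, was called at 1.04. It was called in 21 of 24 alternative fits, with values down to 0.89. Hist2h3c1 was the lowest H3 gene and the least reproducible, with 30.5, 205 and 102 TPM at E5.5. All of its windows also occur in another gene, and its sum with Hist2h3c2 was 280 ± 37 TPM at E4.5 and 487 ± 89 TPM at E5.5.

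The H4 genes had embryo means from 42.0 to 604 TPM. Hist1h4k read 254, 256 and 300 TPM at E4.5 and 698, 611 and 779 TPM at E5.5, a log2 fold change of 1.36 (SE 0.11, limma adjusted p = 1.44e-07). Hist1h4h gave 1.48 at the same step and Hist1h4b 0.82, the latter not called. Hist1h4a, without the hairpin, was called at 1.17. Hist1h4b then fell from 861, 809 and 797 TPM at E6.5 to 429, 458 and 479 TPM at E7.5, by 0.85 on the log2 scale (limma adjusted p = 3.08e-05), under the fold needed for a call. It passed that fold, at -1.19, with median-of-ratios factors and, at -1.03, with the other protein-coding genes set to a common total.

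Hist1h4i dipped at E4.5. It read 92.2, 84.7 and 76.9 TPM at E3.5, 18.9, 29.7 and 39.3 at E4.5, 187, 154 and 182 at E5.5, 160, 125 and 132 at E6.5, and 158, 179 and 175 at E7.5. The E4.5 libraries lay below all others. It was the only one of the 67 called lower from E3.5 to E4.5, at -1.55 (SE 0.20, limma adjusted p = 1.8e-05), and it rose to E5.5 by 2.59 (SE 0.20, adjusted p = 8.07e-08). Hist4h4, the single clustered histone gene on chromosome 6, read 8.59, 18.2 and 12.9 TPM at E4.5 and 69.4, 63.9 and 73.5 TPM at E5.5, a log2 fold change of 2.35 (SE 0.20, limma adjusted p = 2.33e-07).

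The calls of the E4.5 to E5.5 step, where 14.9% of all genes tested were called higher, were also counted by position and sequence similarity. In the stretch of chromosome 13 at 21715763 to 21837530, 17 of 18 tested genes were called higher, and in that at 22035164 to 22043676 5 of 5 were. In the largest stretch, at 23531050 to 23764406, 12 of 29 were called. On chromosome 3 the count was 5 of 10, on chromosome 11 2 of 2 and on chromosome 6 1 of 1. At 23933773 to 23934851 on chromosome 13 it was 1 of 2. These stretches differ in how many H1, H3 and near-identical H2A genes they hold, and the stretches were not tested against each other. The median gene shared 33.5% of its 100-base windows with other genes, and 7 genes shared none. Of the genes with at most 10% of windows shared 7 of 16 were called (median log2 fold change 0.88), of those with over 10 to 60% 18 of 29 (1.11) and of those above 60% 18 of 22 (1.28). Of the 16, 5 were H1 genes, a type without calls at this step, and 7 of the other 11 were called. The groups by sharing were not tested against each other. How the authors' software divided reads between copies is not given in the sources used here.

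Genes that act with these histones were counted from lists, with no test against the clustered histone genes. The shares of all genes called in each comparison are those given above. Of 22 tested genes for histone mRNA transcription and processing, 1 was called higher from E4.5 to E5.5, Zfp473 at 1.06, a zinc finger protein of the processing machinery, with a median of 0.14 over the list. Slbp, whose protein binds the stem-loop, had levels of 149 ± 21 TPM at E4.5 and 172 ± 21 at E5.5, with a log2 fold change of 0.21 (limma adjusted p = 0.102). Npat, the cyclin E-Cdk2 target that activates histone genes, had 17.4 ± 0.19 and 17.6 ± 1.4 TPM. Ccne1, cyclin E1, was called higher from E3.5 to E4.5 at 1.20, and Ccne1 (1.44) and Ccne2 (1.28) from E3.5 to E7.5. The list had 0 calls in the other 2 steps between neighbouring stages.

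Of 28 DNA replication genes 0 were called from E4.5 to E5.5 in limma (median 0.12), and of 14 mitosis genes 0 (median 0.43). From E3.5 to E7.5, 4 of the 28 replication genes were called higher, where 23.8% of all genes were. They included Pcna (1.31), Mcm7 (1.10) and Mcm3 (1.06), and Tk1, thymidine kinase, was called lower at -1.38. Tk1 was also the single replication call, lower, from E3.5 to E4.5. Of the mitosis genes 6 were called higher from E3.5 to E7.5, led by the kinase gene Aurkb (1.54) and the topoisomerase gene Top2a (1.44), where 23.8% of all genes were called higher, and none in a step between neighbouring stages. The summed replication list was 2442 ± 61 TPM at E4.5 and 2812 ± 106 at E5.5, where the clustered histone sum rose 2.15 times.

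Of 11 tested variant histones, many of which are made outside S phase too, 2 were called higher from E4.5 to E5.5 (the macroH2A gene H2afy2 at 2.65 and the H3.3 gene H3f3a at 1.19) and the other macroH2A gene H2afy lower at -2.27. The median over the variants at this step was 0.87, against 0.16 over all genes tested. H2afy2 and H2afj were called lower from E3.5 to E4.5, H2afy and H2afy2 higher from E6.5 to E7.5, 0 variants from E5.5 to E6.5 and 4 higher from E3.5 to E7.5. Of 15 histone chaperone genes, whose proteins escort histones to DNA, 1 was called lower from E4.5 to E5.5 (Asf1b at -1.03, with a median of 0.48 over the list) and 4 higher from E3.5 to E7.5 (Nasp, from 345 ± 15 to 974 ± 52 TPM, and Nap1l1, Asf1a and Rbbp4 at 1.44, 1.29 and 1.23), with 0 calls in the remaining steps.

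In culture, where libraries were made from poly-A RNA, the 70 genes made up 0.0657 to 0.0966% of TPM. The mean sum was 32690 TPM over the 15 embryo libraries and 806 TPM over the 12 culture libraries, 40.6 times apart, and the lowest embryo library was 18.8 times the highest culture library. The ratio was 338 for H3, 220 for H2B, 211 for H1, 183 for H4 and 20.1 for H2A. Above a mean of 2 TPM, 67 genes were listed in every embryo group and 15 in every culture group. Above 10 TPM the counts were 66 and 10. These values are set side by side without a test. The 9 other RNAs without a poly-A tail summed to means of 40655, 36835, 62109, 55999 and 21157 TPM from E3.5 to E7.5. Their means in the 4 cultures lay between 35.0 and 103 TPM.

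**Figure D5:**
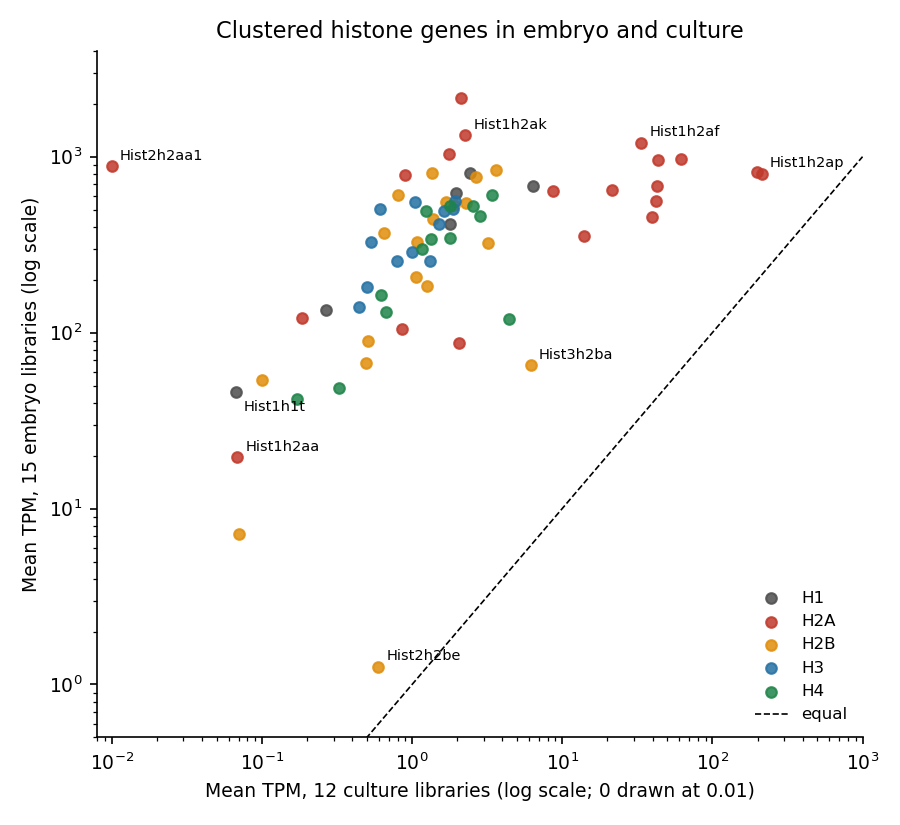
Mean TPM of each clustered histone gene over the 15 embryo libraries against the mean over the 12 culture libraries, both on log axes, coloured by type; the dashed line marks equal levels, and Hist2h2aa1, at 0 in culture, is drawn at the left edge. The genes with culture means above 10 TPM are all H2A, and Hist2h2be is low in both.

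The 10 genes above 10 TPM in every culture group were all H2A. They held 87.8% of the culture sum and 22.8% of the embryo sum. Hist1h2ap was highest, at 224 ± 29 TPM in ESC3D, 205 ± 17 in Embryo3D, 221 ± 22 in EpiSC and 201 ± 25 in EpiLC cultures, and at a mean of 802 TPM over the embryo libraries. Hist1h2ao had a culture mean of 197 TPM, Hist1h2ah 61.4, Hist1h2ai 43.6, Hist1h2an 42.4 and Hist1h2ad 42.2.

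All 10 share 100-base windows with H2afx, the variant H2A.X gene, whose mRNA is known in both a stem-loop and a polyadenylated form. In total 14 H2A genes share windows with it, and 10 of them are those above 10 TPM in every culture group. Among the others, Hist2h2aa2 had a culture mean of 2.12 TPM and Hist2h2aa1 was at 0 in all culture libraries. The share of windows that each gene has in common with H2afx is not given. H2afx itself had means of 299 to 563 TPM at the embryo stages and 219 to 371 TPM in the cultures. At least 30.7% of the windows of each of the 10 also occur in some other gene, and 8 of the 10 share over 60%. Of the other 10 H2A genes the highest culture mean was 8.66 TPM, and the highest of any other type was 6.37 TPM, for Hist1h1c. The part of shared reads in the culture levels was not tested. Outside the 10, the genes nearest in level between embryo and culture were Hist2h2be (2.13 times) and Hist3h2ba (10.6 times), the latter at 10.4 ± 2.4 TPM in EpiSC and 2.26 ± 1.0 in EpiLC cultures. The median gene was 253 times higher in the embryo libraries.

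The labelled tissue was checked by marker lists across all stages. Epiblast markers summed to means of 722, 487, 987, 999.9 and 363 TPM from E3.5 to E7.5. Trophectoderm and extra-embryonic ectoderm markers summed to 3243 and 2968 TPM at E3.5 and E4.5, above the epiblast list, and to 426, 576 and 821 TPM at the later stages. The E4.5 sum was mostly the keratin genes Krt18 and Krt8, so it does not give the share of trophectoderm cells. Endoderm markers summed to 479, 79.7, 641, 999 and 1050 TPM. Mesoderm markers summed to 2.11, 29.8, 9.58, 101.4 and 218 TPM, with 2 of 5 called higher and 1 lower from E4.5 to E5.5. Of 4 blood genes, all at 0 at E3.5 and E4.5, the sum reached 21.9 TPM at E7.5, and 0 of the 2 tested were called at the E5.5 step. Oocyte genes summed to 1.41 TPM at E3.5, 9.38 at E4.5 and at most 0.257 TPM as a later stage mean, with Zp3, the 1 tested, called lower from E4.5 to E5.5.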

How the data were processed

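RNA-seq of 15 embryo and 12 culture libraries was used; the single-cell RNA and methylation samples of the series were not analysed here. As far as the submitters' processing notes and the methods say, TPM were computed by the authors with StringTie on GENCODE models, after trimming (cutadapt 2.4) and alignment to mm10 (STAR); the deposited table holds TPM for 54446 genes, and their handling of reads that map to several copies is not given in the sources used here. Of its 54490 lines, 56 had empty cells, read as 0, and 12 identifiers on several lines were summed. Groups came from the sample labels. With limma 3.58.1 (R 4.3.3), log2(TPM + 1) was fitted for the 5 stages together, over the 11880 of 20774 autosomal protein-coding genes with TPM above 2 in at least 3 embryo libraries, with Benjamini-Hochberg adjustment. The fit was tested on simulated data.

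Genes named were, by rule, in each type the 3 with the highest and the 1 with the lowest embryo mean, all H1 genes, the 2 largest calls without overlap in each direction of each comparison, the 6 highest in culture, those without a hairpin, and that nearest the filter. The genes and lists were chosen with earlier results of these data known. Sequence similarity (shared 100-base windows) and hairpins used mm10 with GENCODE vM21 models, and promoters came from RefSeq; the hairpin search after the stop codon was chosen after seeing the data. Alternatives were another pseudocount (0.1), no filter, all genes, other scalings, only the compared groups, a replicate block, an intensity trend, the highest of several lines, and leaving out each library. Same-numbered libraries of different stages did not deviate together (mean correlation -0.0166 over 30 pairs), so numbers were not used as pairs.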

Additional observations from a re-analysis of the deposited data

How the results depend on the processing

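Over 24 alternative fits per comparison, 36 of the 43 genes called from E4.5 to E5.5 were called in every fit (42 to 46 higher when a library was left out, 0 lower), as were 2 of 2 from E3.5 to E4.5, 2 of 2 from E6.5 to E7.5 and 9 of 21 from E3.5 to E7.5. For E3.5 to E4.5, the fit over all genes past the filter called 2 higher and 2 lower, adding the pseudogenes Hist1h2al and Hist3h2bb-ps, and a pseudocount of 0.1 gave 2 lower, adding Hist2h2be. Leaving out libraries gave 1 to 2 higher, with Hist1h1e added without E3.5 replicate 2 or 3. For E5.5 to E6.5, a pseudocount of 0.1 gave 1 lower, Hist1h2aa, and leaving out libraries 0 to 1, the same gene without E5.5 replicate 3 or E6.5 replicate 1 or 2. For E6.5 to E7.5, a pseudocount of 0.1 or setting the other protein-coding genes to a common total gave 1 higher. Lower calls were 5 with median-of-ratios factors and 4 with the common total, where 3.22% and 3.02% of all genes were called lower. Leaving out libraries gave 0 to 2 higher (2 without E6.5 replicate 2, 1 without E6.5 replicate 3 or E7.5 replicate 1) and 2 to 4 lower (4 without E7.5 replicate 1). For E3.5 to E7.5, higher calls were 7 with median-of-ratios factors and 8 with the common total, where 18.8% and 21.3% of all genes were called higher. Leaving out libraries gave 16 to 25 higher calls. Shares of all genes called in the fits other than the rescaled ones are not given, and the cause of these shifts was not tested.

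With the common total, the histone sums of E3.5 to E7.5 were 40665, 34584, 71751, 80229 and 62442, and those of ESC3D, Embryo3D, EpiSC and EpiLC 1078, 955, 987 and 916, which by construction leave the noncoding RNAs out of the total. With median-of-ratios factors the sums of E3.5 to E7.5 were 22321, 20538, 39639, 46309 and 32182. Above a mean of 1 TPM, 30 genes were listed in every culture group, in place of 15 above 2 TPM. For the named genes, 3777 of 3840 alternative values kept their side of the threshold, 21 passed it, 42 lost it, and 65 uncalled values changed sign.

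The replicate number as a block changed no call count: 43 higher and 0 lower from E4.5 to E5.5, 1 and 1, 0 and 0, 0 and 2 in the other steps and 19 and 2 from E3.5 to E7.5. Same-numbered libraries had a mean correlation of deviations of -0.0166, differently numbered ones 0.00835.

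Limits are the unknown read counts behind the values and the shared sequence of near-identical copies. Levels of different genes are also set by the length of their models. Some models run far past the hairpin, by 2445 bases for Hist4h4 and 4884 for Hist1h1d. TPM of 0 occurred in single libraries for Hist1h1e, Hist1h2ac and Hist2h2be and in 5 for Hist2h2aa1. Further limits are a fragmentation change between E4.5 and E5.5, and different kits in embryo and culture.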
